A study of Mus musculus with 6 samples.

Results

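BTG/TOB, cyclin G and GADD45 genes are grouped here as antiproliferative genes. The 10 genes looked at here were found by their symbols in the probe annotation of the arrays: Btg1, Btg2, Btg3, Tob1 and Tob2, the cyclin G genes Ccng1 and Ccng2, and Gadd45a, Gadd45b and Gadd45g. Of these 10 genes, 9 had a probe set of 1 symbol, of 19936 genes so measured in all, and each of the 9 had a single one. The remaining gene, Btg3, was annotated together with Gm7334 on both of its probe sets, so its own signal could not be told apart and is not analysed here. The study used pre-B cells of the mouse that the oncogenic tyrosine kinase BCR-ABL1 had transformed, a model of BCR-ABL1-driven acute lymphoblastic leukaemia (Ph+ ALL), and compared them after transduction with the retroviral vector pMIG carrying IKZF1 (the IKZF1 group, 3 arrays) or with pMIG alone (the empty vector group, 3 arrays). All 6 samples came from wild-type C57Bl6 mice aged 4 weeks. After transformation and transduction, both groups carried BCR-ABL1 and a vector with green fluorescent protein. Total RNA was taken from sorted fluorescent cells 3 days after transduction. IKZF1 encodes the zinc finger transcription factor Ikaros, and the labels give neither the species nor the isoform of the insert. Nor do they state that the 3 arrays of a group stem from different mice or cultures, and p-values therefore measure only the scatter of these samples, part or all of which may be technical.

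Proteins of the BTG/TOB family share an amino-terminal domain that binds a catalytic subunit of the CCR4-NOT complex and thereby promotes the shortening of poly(A) tails and the decay of messenger RNA. Btg1 and Btg2 keep mouse T cells quiescent, and BTG1 is recurrently deleted in human B cell precursor leukaemia. Cyclin G proteins bind protein phosphatase 2A, and cyclin G2, unlike most cyclins, restrains the cycle. Ccng1 is a target of p53 and Ccng2 a target of FOXO factors. GADD45 proteins are small, stress-induced proteins that activate the kinase MTK1 (Map3k4) upstream of p38 and JNK, and bind PCNA and CDK1.

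Levels are given as log2(intensity + 1), and differences as IKZF1 minus empty vector on that scale. Median intensities of the arrays lay between 100.2 and 107. The probe set of Ikzf1 was 2.34-fold higher in the IKZF1 group (log2 difference 1.23 ± 0.072, SE, n = 3 arrays per group; limma adjusted p = 0.00206), the direction that the labels give. Of 10 pre-B cell markers, 9 were measured, all above background, at mean log2 levels from 9.95 to 13.87. On group alone none of them passed, and 4 had an unadjusted limma p under 0.05, against 18.4% of all genes. The surrogate light chain gene Vpreb2 was lower with replicate number as a block (-0.38, limma adjusted p = 0.0301), a call lost without pair 1 or pair 2 (0.183 and 0.137). Background was taken as the 95th percentile of 1194 olfactory and vomeronasal receptor genes, a log2 level of 6.18, and all 9 antiproliferative genes lay above it in both groups. Empty vector 3 stood apart from the other arrays: on the first principal component, with 51.3% of the variance, it lay at 41.8 and the other 5 arrays between -24.5 and 2.73. Arrays with the same replicate number deviated together from their group means, so results are given from the fit on group alone and, where the call differs, with replicate number as a block.

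The promoters of Btg1, Btg2 and Gadd45a are shown because these genes had the largest differences of the 9 and were the ones called in the fit with the block. Each window runs from 250 bases before to 50 bases after the RefSeq start of the gene in build GRCm38.p6, at chr10:96616751-96617050 on the plus strand for Btg1, chr1:134079106-134079405 on the minus strand for Btg2 and chr6:67037358-67037657 on the minus strand for Gadd45a. Capitals mark matches on either strand to 3 motifs, which were chosen with the sequences in view: the core GGGAA recognised by Ikaros, the forkhead motif TGTTTAC bound by FOXO factors, and the cAMP response element TGACGTCA.
Btg1: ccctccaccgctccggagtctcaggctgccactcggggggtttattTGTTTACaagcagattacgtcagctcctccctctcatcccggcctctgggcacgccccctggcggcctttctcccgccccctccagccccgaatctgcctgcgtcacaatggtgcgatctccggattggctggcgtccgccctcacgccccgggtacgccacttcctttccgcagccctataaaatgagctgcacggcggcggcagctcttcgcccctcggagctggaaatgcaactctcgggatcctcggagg
Btg2: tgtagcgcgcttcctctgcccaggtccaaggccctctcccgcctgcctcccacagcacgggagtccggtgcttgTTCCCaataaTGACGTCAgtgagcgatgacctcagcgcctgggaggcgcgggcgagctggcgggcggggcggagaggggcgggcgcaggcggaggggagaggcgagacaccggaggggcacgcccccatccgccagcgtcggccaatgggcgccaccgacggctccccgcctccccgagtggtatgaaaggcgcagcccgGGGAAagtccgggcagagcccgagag
Gadd45a: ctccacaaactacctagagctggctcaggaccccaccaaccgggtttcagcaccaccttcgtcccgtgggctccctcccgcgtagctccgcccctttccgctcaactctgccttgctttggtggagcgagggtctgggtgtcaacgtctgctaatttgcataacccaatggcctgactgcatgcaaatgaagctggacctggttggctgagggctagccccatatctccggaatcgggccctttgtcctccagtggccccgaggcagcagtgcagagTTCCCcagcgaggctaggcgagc

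The Btg1 window held the forkhead motif, with its first base 204 bases before the start, and no match to the Ikaros core. That forkhead motif was found in 3.65% of 32851 mouse promoter windows of the same length, and in 1 of the 10 genes. In the Btg2 window the cAMP response element began 166 bases before the start, beside an Ikaros core on the opposite strand at 176 bases, and a second core lay at base 25 after it. The response element was found in 1.79% of all windows, and again in 1 of the 10 genes. Gadd45a held 1 Ikaros core on the opposite strand to the gene, at base 28 after the start. With 8 of the 10 genes holding it in at least 1 of their 11 windows, the Ikaros core was common, as it was among all windows (62.7%). No 2 matches overlapped, and a match describes letters, not binding.

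In the limma fit on group alone, 0 of the 9 genes reached the significance threshold (adjusted p under 0.05), which 2.25% of all genes reached, and 3 of the 9 had an unadjusted p under 0.05, against 18.4% of all genes. With replicate number as a block, Btg1, Btg2 and Gadd45a passed, all higher in the IKZF1 group, and 3.36% of all genes passed upward in that fit. In a setting added after the data were seen, 0 of the 9 passed with the block once pair 1 or pair 2 was left out. These 3 genes were also the ones that were higher in the IKZF1 array of each of the 3 same-numbered pairs, as were 30.2% of all genes. The median log2 difference of the 9 genes was 0.19, with 7 above 0 and 2 below, beside 0.035 over all genes. In bulk RNA, a change in the number of cells expressing a gene and a change in the RNA per cell cannot be told apart.

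**Figure D1:**
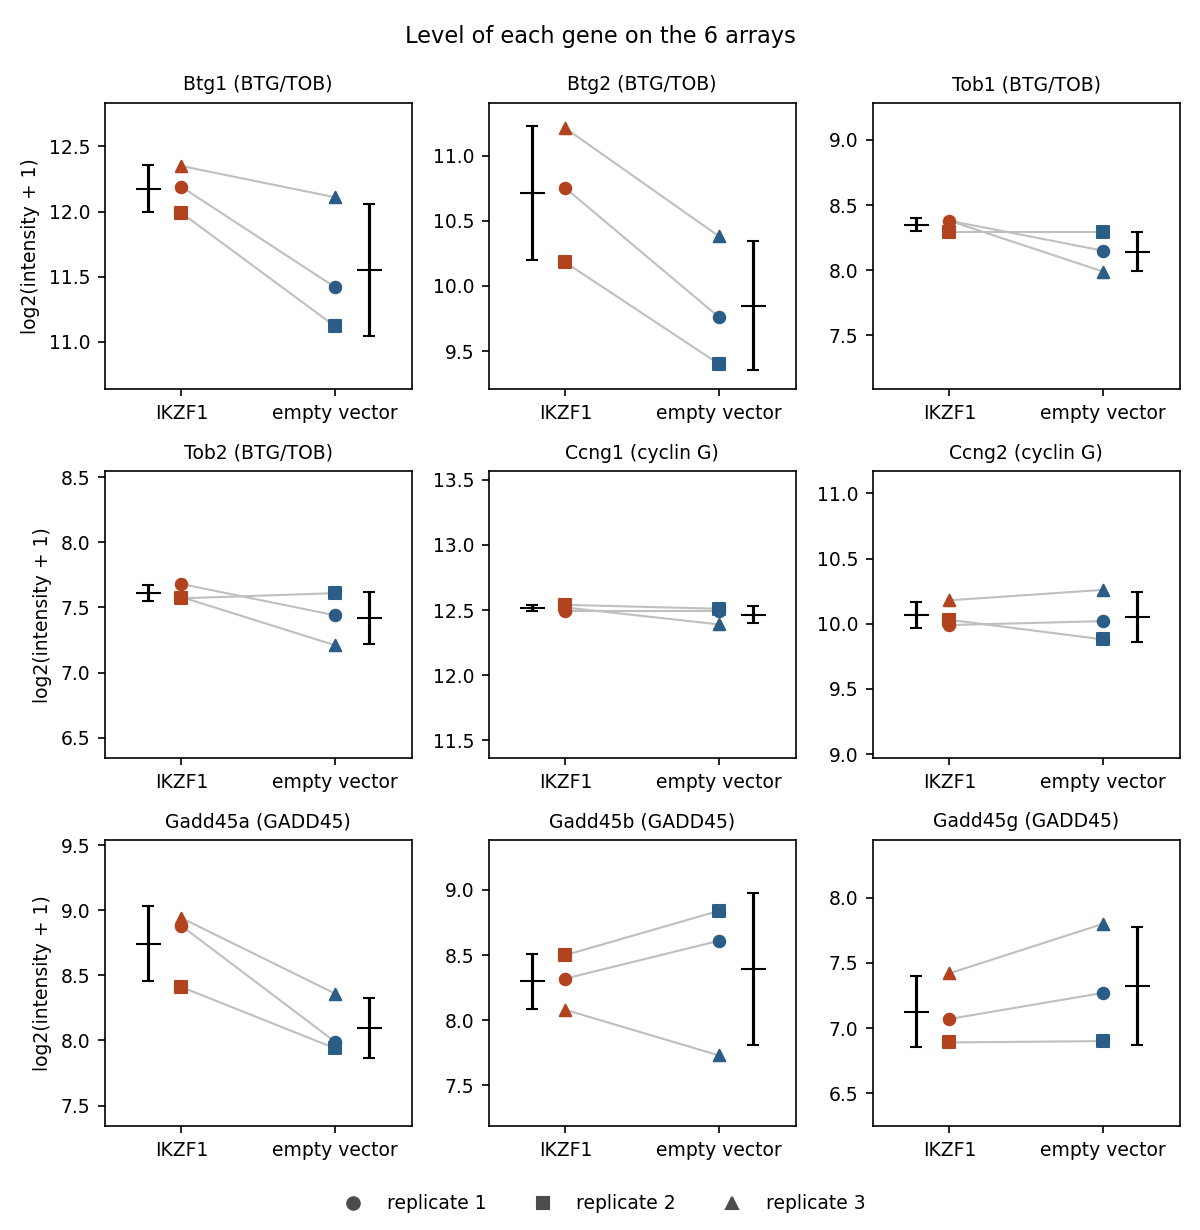
Log2(intensity + 1) of the 9 genes on the 6 arrays, IKZF1 left and empty vector right; symbols mark the replicate number, grey lines join arrays of the same number, black bars are mean ± SD (n = 3), and every panel spans 2.2 log2 units. Lines of Btg1, Btg2 and Gadd45a all slope down towards the empty vector, whereas those of Ccng1 and Ccng2 are nearly level.

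Btg2 (probe set 10357875), a p53 target within the family, had log2 levels of 10.75, 10.18 and 11.21 on IKZF1 arrays 1 to 3, against 9.76, 9.40 and 10.38 on empty vector arrays 1 to 3. The groups overlapped, since IKZF1 2 lay below empty vector 3. Arrays 2 were the lowest and arrays 3 the highest of both groups, and within pairs of the same number the difference was 0.99, 0.79 and 0.83. The mean difference was 0.87, or 1.83-fold (95% interval 1.06 to 3.14). On group alone its SE was 0.33 (limma adjusted p = 0.233), and with the block it was 0.068 (limma adjusted p = 0.00668). The SD was 0.51 within the IKZF1 group and 0.50 within the empty vector group (n = 3 each), and 0.11 among the paired differences. Without empty vector 3 the difference was 1.13 and did not pass on group alone (limma adjusted p = 0.0807).

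Btg1 (probe set 10365971), the closest relative of Btg2, had log2 levels of 12.19, 11.99 and 12.35 in IKZF1 cells, against 11.42, 11.12 and 12.11 in empty vector cells. Again the lowest IKZF1 array, IKZF1 2, lay below empty vector 3, the highest of its group. The difference was 0.63 ± 0.25 (SE, n = 3 per group), or 1.55-fold (95% interval 1.02 to 2.34; limma adjusted p = 0.252). With the block the limma adjusted p was 0.0493, close to the threshold, and the paired differences of 0.77, 0.87 and 0.24 were uneven, with the smallest in pair 3. Without empty vector 3 the difference was 0.91 and passed on group alone (limma adjusted p = 0.0187), and without empty vector 2 it was 0.41 and did not pass (limma adjusted p = 0.355).

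The TOB genes encode the larger members of the family, with a carboxy-terminal extension that binds poly(A)-binding protein. Tob1 had log2 levels of 8.38, 8.29 and 8.38 in IKZF1 cells, against 8.15, 8.29 and 7.99 in empty vector cells. Its difference of 0.20 did not pass (95% interval -0.0096 to 0.41; limma adjusted p = 0.289). For Tob2 the levels were 7.68, 7.57 and 7.58 in IKZF1 cells and 7.44, 7.61 and 7.21 in empty vector cells, a difference of 0.19 (95% interval -0.065 to 0.45; limma adjusted p = 0.389). Both TOB genes were lowest in empty vector 3, where Btg1 and Btg2 were the highest of their group, and in pair 2 their differences were -0.0062 for Tob1 and -0.032 for Tob2. Neither passed with the block (limma adjusted p = 0.223 and 0.25).

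Ccng1, which encodes cyclin G1, varied least of the 9 genes, with log2 levels of 12.49, 12.54 and 12.52 in IKZF1 cells, against 12.49, 12.51 and 12.39 in empty vector cells. The difference of 0.050 had a 95% interval from -0.093 to 0.19, which is 0.94-fold to 1.14-fold (limma adjusted p = 0.676). Ccng2, which encodes cyclin G2, had 9.99, 10.03 and 10.18 in IKZF1 cells, against 10.02, 9.88 and 10.26 in empty vector cells, with the groups interleaved. Its difference of 0.015 had a 95% interval from -0.25 to 0.28, or 0.84-fold to 1.21-fold (limma adjusted p = 0.953). Both differences turned negative with arrays centred on their medians (-0.047 and -0.081), so neither has a settled direction.

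Among the GADD45 genes, the groups did not overlap for Gadd45a (probe set 10545130), a target of p53 and of FOXO factors. Its log2 levels were 8.88, 8.41 and 8.94 in IKZF1 cells, against 7.99, 7.94 and 8.36 in empty vector cells, a 1.57-fold difference (log2 0.65 ± 0.18, SE, n = 3 per group; 95% interval 1.17-fold to 2.10-fold). It was the one gene of the 9 with all IKZF1 arrays above all empty vector arrays, as were 15.2% of all genes. On group alone it did not pass (limma adjusted p = 0.129), with the block it did (limma adjusted p = 0.0235), and the exact permutation test of the 6 values gave p = 0.1, 2-sided, the smallest that 3 arrays against 3 allow. The margin was small, between 8.41 in IKZF1 2 and 8.36 in empty vector 3, and without empty vector 3 the difference of 0.78 passed on group alone (limma adjusted p = 0.0473).

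Gadd45b, which is induced by NF-kB and TGF-beta signalling, had log2 levels of 8.32, 8.50 and 8.08 in IKZF1 cells, against 8.61, 8.84 and 7.73 in empty vector cells. Pairs 1 and 2 were lower in IKZF1 cells (-0.29 and -0.33) and pair 3 was higher (0.35), and the mean difference was -0.088 (95% interval -0.77 to 0.60; limma adjusted p = 0.885). Leaving out IKZF1 3, empty vector 1 or empty vector 2 turned that difference positive (0.022, 0.019 and 0.13). With the block and without pair 3, a setting added after the data were seen, the difference was -0.31 (limma adjusted p = 0.0477). In that fit 2489 of 19936 genes passed, and without pair 1 or pair 2 the difference was 0.011 and 0.034. Gadd45g had 7.07, 6.89 and 7.42 in IKZF1 cells, against 7.27, 6.90 and 7.80 in empty vector cells, a difference of -0.19 (95% interval -0.78 to 0.39; limma adjusted p = 0.693, and 0.228 with the block). It was lower in the IKZF1 array of all 3 pairs, although the difference in pair 2 was -0.0041, and without empty vector 3 its mean difference was 0.047.

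**Figure D2:**
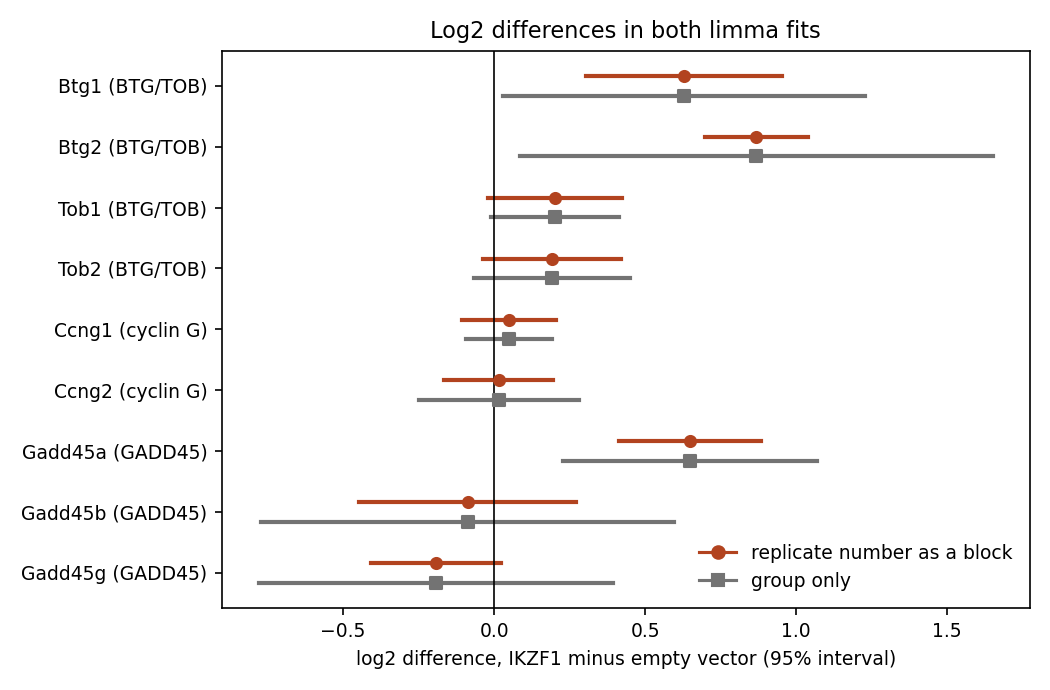
Log2 difference, IKZF1 minus empty vector, of the 9 genes with 95% intervals from limma, with replicate number as a block (red circles) and on group alone (grey squares). The estimates are the same in both fits, and the intervals of Btg2 run from 0.70 to 1.04 with the block and from 0.085 to 1.65 without it.

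Members of a family were also set against each other within arrays, taking in each family the genes with the highest and the lowest difference. Gadd45a minus Gadd45g was 1.81, 1.52 and 1.52 on the IKZF1 arrays and 0.72, 1.04 and 0.56 on the empty vector arrays, with no overlap and mean values of 1.62 and 0.78 (difference 0.84; exact permutation p = 0.1, 0.3 adjusted over the 3 families). Btg2 minus Tob2 had a difference of 0.68 between the groups, with overlapping groups (exact permutation p = 0.3, 0.45 adjusted), and Ccng1 minus Ccng2 one of 0.034 (exact permutation p = 0.8, also adjusted). As the genes were picked for their differences, these exact p-values are too small.

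Within its group, empty vector 3, the array that stood apart, was the highest for 5 of the 9 genes (Btg1, Btg2, Ccng2, Gadd45a and Gadd45g) and the lowest for the other 4 (Tob1, Tob2, Ccng1 and Gadd45b). Over all genes it was the highest of its group for 39.1% and the lowest for 37.3%. The SD was larger among empty vector than among IKZF1 arrays for 7 of the 9 genes, and for 50.8% of all genes. Gadd45a had the smallest p of the 9 in the fit on group alone, although Btg2 had it with the block, and the genes whose levels were most like it over the 6 arrays were Abra (Pearson r = 0.993), Trak2 (r = 0.992) and Rc3h2 (r = 0.990). None of these 3 passed the threshold on group alone, with log2 differences of 0.12, 0.21 and 0.25. With 6 arrays and 19936 genes, correlations of this size are a description of shared variation between arrays.

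Partners and regulators of the families, other targets of p53 and of FOXO factors, and genes of lymphocyte quiescence were examined as lists. Over all genes, 2.25% passed in limma on group alone and 18.4% had an unadjusted p under 0.05. With the block 670 of 19936 genes passed upward, which is 3.36%, and 768 passed downward. CCR4-NOT subunits and poly(A) partners, through which BTG/TOB proteins act, had 14 of 15 genes measured, and 0 passed in limma on group alone or with the block, with 2 at an unadjusted p under 0.05. Their median was -0.024, and the smallest p belonged to Pan3, of the PAN2-PAN3 deadenylase (0.18, limma adjusted p = 0.256), and Cnot9 (-0.15, limma adjusted p = 0.261). Of 9 measured partners of GADD45 proteins, most of them MAP kinase signalling genes, 0 passed without the block, where limma gave 1 an unadjusted p under 0.05, and with the block 1 was lower. That gene, Map2k6, encodes an activator of p38 (-0.44, limma adjusted p = 0.0678, and 0.0232 with the block, a call lost without pair 1 or pair 2, at 0.184 and 0.122), and Mapk14, which encodes p38 alpha, had -0.096 (limma adjusted p = 0.432). Among 9 partners of cyclin G, again 0 passed in either limma fit and 4 had an unadjusted p under 0.05. The phosphatase 2A subunits Ppp2r5b and Ppp2r5e differed by 0.26 and -0.25 (limma adjusted p = 0.195 and 0.212).

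Of 24 measured p53 targets outside the families, 2 fell, 0 rose and 22 did not pass, with a median of 0.029. On group alone 8 of them had an unadjusted limma p under 0.05. Sesn2, a stress-induced inhibitor of mTORC1 that ATF4 also induces, fell by 1.22 (limma adjusted p = 0.0227), and Polk, a translesion DNA polymerase gene, fell by 0.69 (limma adjusted p = 0.0194). With the block 3 were lower and 1 higher, the added genes being Psrc1 (-0.65, limma adjusted p = 0.0316) and the ribonucleotide reductase subunit gene Rrm2b (0.49, limma adjusted p = 0.0441). FOXO targets had 18 of 19 genes measured, of which 2 rose, 0 fell and 16 did not pass, with a median of 0.23. Here, too, 8 had an unadjusted limma p under 0.05 on group alone. The risers were Bcl2l11, the gene of the BH3-only protein BIM (0.55, limma adjusted p = 0.0335), and the pseudokinase gene Trib1 (0.44, limma adjusted p = 0.0267). With the block Klf2, a quiescence factor of lymphocytes (1.15, limma adjusted p = 0.0256), and the ubiquitin ligase gene Fbxo32 (0.77, limma adjusted p = 0.0412) were higher as well, making 4. Without pair 1 or pair 2, 0 p53 targets and 0 FOXO targets passed in limma with the block, and without pair 3 the counts were 8 and 9. For Klf2 the limma adjusted p was 0.175 without pair 1 and 0.0516 without pair 2, and for Fbxo32 it was 0.224 and 0.178. Of the calls on group alone, those of Sesn2, Polk, Bcl2l11 and Trib1 were lost without any one array other than empty vector 3 (limma adjusted p from 0.0583 to 0.177), and those of Bcl2l11 and Trib1 also with arrays centred on their medians (0.0893 and 0.0704). Trib1 also missed with an intensity trend in the prior (limma adjusted p = 0.057).

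Of 14 measured transcription factors known to regulate the families, 2 fell, 0 rose and 12 did not pass, with a median of 0.087. On group alone 6 of them had an unadjusted limma p under 0.05. Atf4, which drives the response to amino acid shortage, fell by 0.68 (limma adjusted p = 0.00734) and its target Ddit3, the gene of CHOP, by 0.85 (limma adjusted p = 0.0405). Atf4 missed the threshold without IKZF1 1 or empty vector 1 (limma adjusted p = 0.0565 and 0.0748), and Ddit3 without any one array other than empty vector 3 (limma adjusted p from 0.0979 to 0.146). Myc was lower with the block (-0.39, limma adjusted p = 0.0413, and 0.204 on group alone). Of these factors, too, 0 passed in limma with the block without pair 1 or pair 2. Of 10 genes of lymphocyte quiescence, 0 passed in limma on group alone, 3 had an unadjusted p under 0.05 and 8 had a difference above 0 (median 0.16). Klf2 and the mTORC1 inhibitor gene Tsc2 had the smallest p (1.15 and 0.19, limma adjusted p = 0.108 and 0.166), and Klf2, which is also on the FOXO list, was the one that passed with the block.

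**Figure D3:**
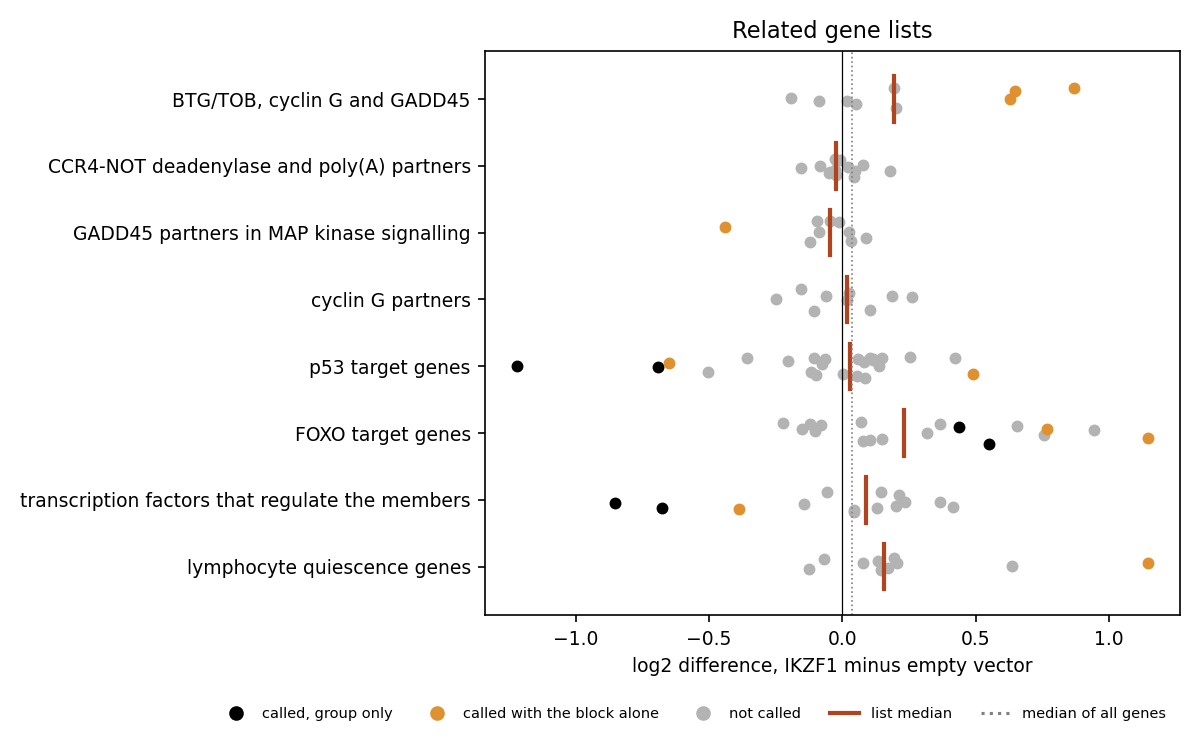
Log2 difference, IKZF1 minus empty vector, of each gene in the 8 groups; black points passed in the fit on group alone, orange points in the fit with the block alone and grey points in neither; red bars are list medians and the dotted line is the median of all genes, 0.035. The FOXO targets have the highest median, 0.23, and the antiproliferative genes hold 3 orange points between 0.63 and 0.87.

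Markers of other cell types were read beside these results. Unlike the 9 antiproliferative genes, a marker counted as above background if the mean of either group was. For 6 measured T cell markers, 3 of them above background, the summed intensity was 464 to 598 on IKZF1 arrays and 422 to 441 on empty vector arrays, with no overlap. Among all genes taken singly, 15.2% had all IKZF1 arrays above all empty vector arrays. The 6 stromal markers, 4 above background, summed to 611 to 765 in IKZF1 cells and 536 to 613 in empty vector cells. Plasma cell markers, 4 of 5 above background, summed to 5357 to 6319 in IKZF1 cells and 3698 to 7669 in empty vector cells. The sums of 9 granulocyte and macrophage markers (1 above background) were 436 to 502 in IKZF1 cells and 452 to 501 in empty vector cells, and those of 5 erythroid and megakaryocyte markers (2 above background) 340 to 370 and 343 to 344. On group alone 0 of these markers passed in limma, with an unadjusted p under 0.05 for 1 T cell, 2 stromal, 2 plasma cell, 1 granulocyte and macrophage and 0 erythroid and megakaryocyte genes. With the block, the plasma cell regulator Prdm1 (1.17, limma adjusted p = 0.00427) and the collagen gene Col1a1 (0.30, limma adjusted p = 0.0499) were higher. Prdm1 missed without pair 1 (limma adjusted p = 0.0625), and Col1a1 without any of the 3 pairs (from 0.0643 to 0.215). The mean log2 level of Prdm1 was 7.32 in IKZF1 cells and 6.15 in empty vector cells, the latter just under background (6.18). The other plasma cell markers did not pass, with 1.87 for Jchain, the largest difference of any marker (limma adjusted p = 0.211, and 0.0742 with the block), 0.11 for Tnfrsf17, -0.01 for Sdc1 and -0.32 for Xbp1. Their part in the results for Btg1, Btg2 and Gadd45a was not tested.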

How the data were processed

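Gene expression was measured in 6 samples on Affymetrix arrays with biotin-labelled total RNA. The authors deposited probe set intensities, and the submitters' processing notes name RMA (robust multi-array average) without a version. The values run from 11.1 to 23523, so the intensity scale was read as linear. RMA usually includes quantile normalization, which can reduce a shift shared by most genes, and remaining background can shrink fold changes of dim probe sets.

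From these, log2(intensity + 1) was computed. Of 35421 probe sets, 21789 carried a single gene symbol, 1621 carried more than 1, and for 12011 the annotation used here lists none. Symbols were brought up to date by RefSeq gene number. Only probe sets of 1 symbol were used, and the brightest was taken for the 1001 genes with more than 1. The groups were compared in limma 3.58.1 (lmFit, eBayes, 2-sided, under R 4.3.3), with Benjamini-Hochberg adjustment over 19936 genes. The fit on group alone was tested on simulated data with independent noise, which leaves out deviations shared by same-numbered arrays. Precision is limited by having 3 arrays per group.

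The replicate numbers come from the sample titles. Deviations of same-numbered arrays from group means correlated across genes at 0.24, 0.60 and 0.66, all above the limit of 0.1 for taking numbers as pairs, and those of other arrays at -0.68 to 0.11. IKZF1 2 with empty vector 1 (0.11) also lay above that limit, so the limit alone does not set same-numbered arrays apart. Deviations sum to 0 within a group, which lowers some correlations when others are high. Group alone was the main fit, with the block as the alternative.

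Members and lists were chosen with earlier results of these data known. The text names the 9 measured members, Ikzf1, the list genes past the threshold (up to 4) or the 2 of smallest p, and the 3 genes most like the member of smallest p (Gm and Rik models left out). Genes whose call differs with the block and the named markers were added after their values were seen. Promoter sequences are RefSeq's, build GRCm38.p6, and all 10 genes matched. List genes with no probe set of 1 symbol are not analysed here. Other pseudocounts, normalizations, filters, priors, array weights and the removal of single arrays or pairs were tried.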

Additional observations from a re-analysis of the deposited data

How the results depend on the processing

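On group alone, 448 genes passed, 223 higher and 225 lower, against 1438 with the replicate block (670 higher, 768 lower), 1481 with array weights (an estimate that stopped before it converged), and 24 to 947 without single arrays, the highest without empty vector 3. With arrays centred on their medians the split was 110 higher and 279 lower. Of the 9 antiproliferative genes 0 passed, against 3 with the replicate block, 3 with array weights and 0 to 2 without single arrays (2 without empty vector 3). In settings added after the data were seen, the paired fit without pair 1, 2 or 3 called 25, 56 and 2489 genes. Of the 9 it called 0, 0 and 4, and why these counts differ was not tested. Fewer samples enter each such fit. The block changed the call of no other of the 9. Differences stayed above 0 under all 19 alternatives for Btg1 (0.41 to 0.91), Btg2 (0.62 to 1.16), Gadd45a (0.53 to 0.83), Tob1 (0.11 to 0.31) and Tob2 (0.087 to 0.30). With arrays centred on their medians, those of Ccng1 (-0.047) and Ccng2 (-0.081) turned. Without single arrays the range crossed 0 for Ccng2 (-0.073 to 0.12), Gadd45b (-0.42 to 0.13) and Gadd45g (-0.41 to 0.047). In the paired fit Ccng2 was -0.055 without pair 2, and Gadd45b was 0.011 and 0.034 without pairs 1 and 2. The cause was not tested. Remaining background may shrink differences of the dimmer of the 9 genes, such as Gadd45g and Tob2; its size was not tested.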
